A study of Homo sapiens with 6 samples.

Results

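A set of 10 genes of the EGR, IER and NR4A families, with SRF and DUSP1, were followed in T24 bladder cancer cells with and without overexpression of RNF112. They were chosen by symbol as serum-response immediate-early genes outside the AP-1 group, EGR1, EGR2, EGR3, IER2, IER3, IER5, NR4A1, NR4A2, SRF and DUSP1, and all 10 of the 10 were found among the 23152 genes of the count table. T24 cells are an established line from a human bladder carcinoma and carry an activated HRAS gene. RNA was sequenced from 3 libraries of cells carrying the empty vector (vector) and 3 libraries of cells overexpressing RNF112 (oeRNF112), and the 6 libraries shared RPMI 1640 medium with 10% fetal bovine serum and a lipid-based transfection reagent. The labels name no serum starvation, stimulation or harvest time, so how long before harvest the cells had last received fresh serum is not known. The protocol text of all 6 libraries speaks of siRNA transfection while their titles name a vector and an overexpression, and whether the sequenced cells were transiently or stably modified is not given in the sources used here. No library separates the RNF112 protein from the construct that encodes it. Nothing says that the replicates came from separate cultures, so the p-values measure the spread between these libraries, which may be technical.

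Immediate-early genes are the first to be transcribed when a cell receives a growth factor, serum or stress signal, and their induction needs no newly made protein. RAS activates the MAP kinases, which phosphorylate factors such as ELK1 that sit with serum response factor (SRF) on CArG boxes in the promoters, while the cAMP response element (CRE) is bound by CREB1 and its relatives. The EGR and NR4A products are transcription factors that act on the next set of genes, and the phosphatase DUSP1 switches the MAP kinases off again.

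Reads counted on genes came to 40326143 to 41259569 per vector library and 40029547 to 40541536 per oeRNF112 library, so depth was nearly equal. Even so, more genes had any count in oeRNF112, 19488 to 19531 per library against 18733 to 18773 in vector. Whether rises from a few counts were particular to the families described here was not tested. Counts were expressed as CPM (counts scaled to a common library size) after TMM normalization, and genes were compared with edgeR's quasi-likelihood test, with Benjamini-Hochberg adjustment over the 14467 genes that passed its filter on low counts. RNF112 was at 27, 19 and 24 counts in vector and 29753, 36963 and 31712 counts in oeRNF112, which may include reads from the construct. With an adjusted p under 0.05 taken as the threshold, 18.1% of the genes tested differed, 9.97% being higher and 8.14% lower in oeRNF112. Among identity markers, KRT8, KRT18 and VIM were abundant in every library, and the urothelial factors GATA3 and PPARG were detected, whereas epithelial CDH1 and the differentiated urothelial markers KRT20 and UPK3A had at most 2 counts in any library. Of the other differentiated urothelial markers, UPK1A had 4 to 20 counts and UPK2 at most 7. The identity list summed to 7724 to 9316 CPM in vector and 6152 to 7570 CPM in oeRNF112, and 4 of its 10 tested genes differed: KRT7, KRT18 and CDH2 fell by 0.48, 0.51 and 0.44 on the log2 scale and EPCAM rose by 0.84 (edgeR's adjusted p between 0.013 and 0.0252). In such bulk RNA, fewer cells of a kind and less RNA per cell cannot be told apart. Markers of blood, endothelial, stromal, muscle and liver cells reached summed levels of 17.7 to 19.7 CPM in vector and 16.1 to 19.1 CPM in oeRNF112, and 6 of the 16 in the table passed the filter, with PDGFRA higher and LAPTM5 lower. Of these markers, ALB, DCN and LUM had at most 3 counts in any library. Others were counted in every library: stromal COL1A1 at 262 to 421 counts, and the blood cell markers LAPTM5 at 108 to 293, CD14 at 53 to 91 and PTPRC at 24 to 54.

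The promoters of 7 of the 10 genes were found in the RefSeq table for GRCh38.p14, in 11 windows because some genes have several annotated starts. EGR3, IER3 and NR4A2 had no window there, so their promoters were not read. The 250 bases before the start are shown for the promoters that carry a CArG box or a full CRE (TGACGTCA), because these are the elements through which serum and cAMP signals are known to act on immediate-early genes. Capitals mark the CArG boxes in EGR1, EGR2 and SRF and the CRE in DUSP1, each written 5′ to 3′ on the gene's own strand, and none of the 4 windows overlaps an exon in GENCODE 29.
EGR1 (chr5:138465229-138465478, plus strand): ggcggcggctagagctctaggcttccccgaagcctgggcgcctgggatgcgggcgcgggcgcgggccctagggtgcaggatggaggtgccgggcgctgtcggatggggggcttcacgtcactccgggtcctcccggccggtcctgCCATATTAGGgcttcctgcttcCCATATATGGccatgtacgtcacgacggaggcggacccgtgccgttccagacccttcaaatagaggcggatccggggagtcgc
EGR2 (chr10:62816367-62816616, minus strand): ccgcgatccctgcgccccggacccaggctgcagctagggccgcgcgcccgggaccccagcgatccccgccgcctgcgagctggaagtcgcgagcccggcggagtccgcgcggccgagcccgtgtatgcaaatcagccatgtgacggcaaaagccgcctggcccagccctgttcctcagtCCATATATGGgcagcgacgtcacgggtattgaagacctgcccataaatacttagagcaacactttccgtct
SRF (chr6:43171019-43171268, plus strand): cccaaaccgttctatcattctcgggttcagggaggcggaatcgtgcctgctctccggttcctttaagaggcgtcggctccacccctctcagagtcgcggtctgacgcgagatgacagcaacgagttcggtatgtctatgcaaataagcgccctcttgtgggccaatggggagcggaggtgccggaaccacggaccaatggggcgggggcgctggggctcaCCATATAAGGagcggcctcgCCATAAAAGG
DUSP1 (chr5:172771196-172771445, minus strand): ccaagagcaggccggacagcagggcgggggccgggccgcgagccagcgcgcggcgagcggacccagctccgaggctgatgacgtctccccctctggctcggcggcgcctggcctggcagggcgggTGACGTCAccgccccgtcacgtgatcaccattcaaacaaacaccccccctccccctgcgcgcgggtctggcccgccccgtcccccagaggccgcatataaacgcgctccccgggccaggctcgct
EGR1 held 2 CArG boxes, which began 105 and 83 bases before the start. EGR2 held 1, beginning 71 bases before the start nearest to its 3′ end, and none in the windows of its other 2 starts. SRF held 2 in the window of its first start, beginning 30 and 10 bases before it, and none in the other. A CArG box on either strand was present in 1.16% of the 35116 windows of this length in the table, and 0.0313% held 2 or more. The CRE of DUSP1 began 125 bases before the start, and 1.65% of all windows held one. The shorter site TGACG, which is also part of each CRE, was counted at 4 places in DUSP1, at 2 each in EGR1 and EGR2 and at 1 each in IER2 and SRF, against at least 1 in 21.2% of all windows. The EGR consensus GCGNGGGCG was found once in EGR1 and once in SRF, against 8.41% of all windows. The windows of IER5 and NR4A1 held none of these letters. Those of NR4A1 ended at chr12:52022831 and chr12:52037714 in a gene that runs to 52059503, and any start further downstream was not read. The NF-kB motif, common at 28.9% of all windows, occurred once each in EGR1 and IER2, at 2 places in one window of EGR2 and at 3 places in the second window of SRF. Those in SRF began 98, 39 and 38 bases before the start, and the last 2 overlap. These matches describe the letters of the reference sequence and were not measured as binding.

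Of the 10 genes, 4 rose in oeRNF112 past that threshold (EGR2, NR4A1, DUSP1 and IER3), where 9.97% of all genes did. None of the 10 was lower at that threshold in edgeR, DESeq2 or limma, while 1 of them, NR4A2, was lower at an unadjusted p under 0.05 in edgeR. For 6 of the 10 genes the libraries of the groups stood apart without overlap (36.8% of all genes), 5 of them higher in oeRNF112 (18.9% of all genes) and 1 lower (17.9% of all genes). Their median log2 fold change was 0.40, against 0.00267 over all genes tested. Not every gene of the set rose, and SRF, IER2 and IER5 lay within 0.10 of 0 on the log2 scale, with overlapping groups.

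**Figure D1:**
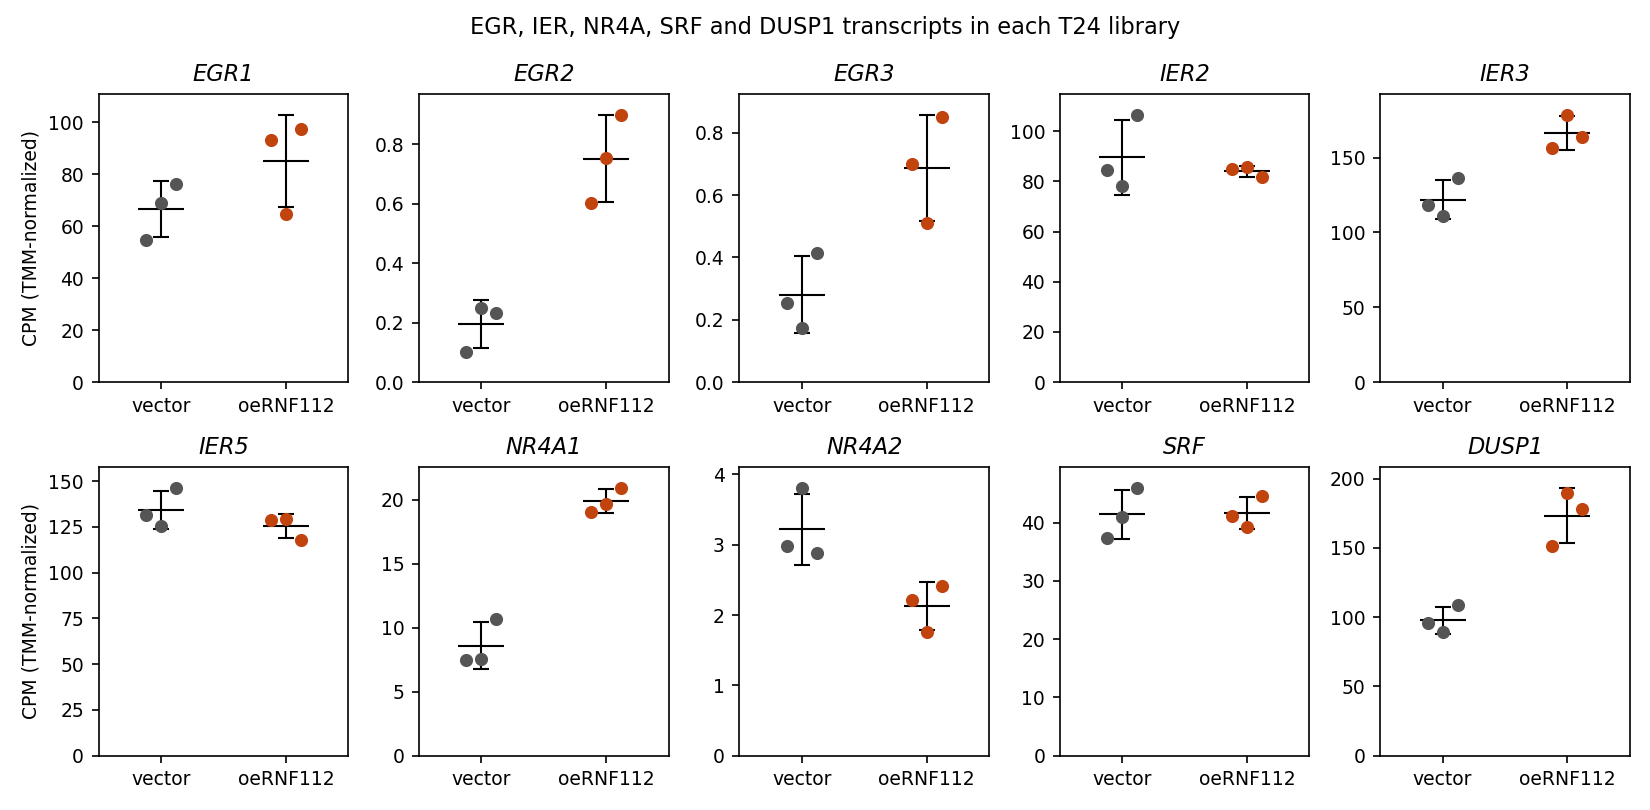
Level of each gene in the 6 libraries, in TMM-normalized CPM on a linear axis from 0. Points are libraries (replicates 1, 2 and 3 from left to right), the horizontal mark is the group mean and the bars are 1 SD (n = 3). All oeRNF112 points lie above all vector points for EGR2, EGR3, IER3, NR4A1 and DUSP1, and below them for NR4A2.

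SRF, the factor that binds the CArG box and is itself an immediate-early gene, did not pass the test. Its CPM was 37.4, 41.0 and 45.9 in vector and 41.1, 39.3 and 44.6 in oeRNF112. The libraries of the 2 groups were interleaved, and the log2 fold change of 0.01 had a 95% interval from -0.22 to 0.24 (edgeR's adjusted p = 0.965). The sign was not settled, since the value was -0.05, -0.00187 and -0.04 without vector replicate 1, vector replicate 2 and oeRNF112 replicate 3.

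EGR1, the zinc finger factor that is the usual readout of MAP kinase signaling, was at 54.8, 68.8 and 76.1 CPM in vector and 93.3, 64.8 and 97.2 CPM in oeRNF112. Of these, 2 oeRNF112 libraries lay above every vector library, but replicate 2 lay below vector replicates 2 and 3. The difference, 0.35 ± 0.164 on the log2 scale (SE, edgeR's adjusted p = 0.163), did not pass the threshold. Without oeRNF112 replicate 2 the difference was 0.53, with an adjusted p of 0.0241 from the same test. This was the only 1 of its 15 alternatives in which EGR1 passed. Without vector replicate 1 the difference shrank to 0.25 (adjusted p = 0.431 from the same test).

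EGR2, a relative of EGR1 best known from myelinating Schwann cells and T cell tolerance, was near the detection limit in vector. It had 4, 10 and 9 counts there and 25, 31 and 38 counts in oeRNF112, or 0.195 ± 0.0816 CPM against 0.752 ± 0.147 CPM (SD, n = 3). The lowest oeRNF112 library was above the highest vector library. On the log2 scale EGR2 rose by 1.93 ± 0.41 (SE, 95% interval 1.02 to 2.85, edgeR's adjusted p = 0.0109), a 3.82-fold difference at a low level. Without vector replicate 1, which had the lowest count, it was 1.64 and just missed the threshold (adjusted p = 0.0504).

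EGR3, close kin of EGR2, followed the same pattern at similarly low counts, 10, 7 and 16 in vector and 29, 21 and 36 in oeRNF112. Each oeRNF112 library was above each vector library, by 1.29 ± 0.407 on the log2 scale (SE), but the adjusted p of 0.0522 from edgeR was just outside the threshold. It was inside it without vector replicate 3 (adjusted p = 0.0433) and without oeRNF112 replicate 2 (adjusted p = 0.0475). The remaining family member, EGR4, was too low to be tested, at 2, 2 and 5 counts in vector and 6, 10 and 19 counts in oeRNF112. The ratio of EGR2 to EGR1 per length was 0.00184, 0.00361 and 0.00305 in vector and 0.00643, 0.0116 and 0.00918 in oeRNF112, without overlap. The abundant EGR1 did not pass the test, while the 3 scarce relatives all had higher counts in each oeRNF112 library than in any vector library. More genes were detected in every oeRNF112 library, so this pattern at low counts may not be particular to the EGR family.

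NR4A1 had the smallest p-value of the 10 genes. This receptor, also called NUR77, belongs to a family of orphan nuclear receptors whose activity is set mainly by how much of the protein is made. It was at 7.48, 7.58 and 10.7 CPM in vector and 19.0, 19.7 and 20.9 CPM in oeRNF112, so that the lowest oeRNF112 library was well above the highest vector library. NR4A1 rose by 1.21 ± 0.147 on the log2 scale (SE, 95% interval 0.88 to 1.54, edgeR's adjusted p = 0.000796), or 2.31-fold. It stayed past the threshold in all 15 alternatives, with adjusted p-values between 4.87e-12 and 0.0119.

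NR4A2, its close relative known for its role in dopamine neurons, had its values on the other side. It was at 2.98, 3.80 and 2.88 CPM in vector and 2.22, 1.75 and 2.41 CPM in oeRNF112. All 3 oeRNF112 libraries lay below all 3 vector libraries, at -0.60 ± 0.201 on the log2 scale (SE), which did not pass the threshold (edgeR's adjusted p = 0.0655). In none of its 14 alternatives did it pass. The ratio of NR4A1 to NR4A2, taken per length and within each library so that no scaling between libraries enters, was 1.10, 0.878 and 1.64 in vector and 3.78, 4.94 and 3.82 in oeRNF112. The 2 transcripts were thus at similar levels per length in vector, and NR4A1 was the more abundant in every oeRNF112 library. This similarity rests on the lengths used, 8037 bases for NR4A1 against 3539 for NR4A2. In read counts NR4A1 already led in vector, at 296, 303 and 413 against 118, 152 and 111. The log2 ratio differed by 1.83 between the groups, with a two-sided exact permutation p of 0.1, the smallest that 3 against 3 libraries allow. The 5 such ratios given here were chosen after the values had been seen, and each gave this p before and after Benjamini-Hochberg adjustment.

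NR4A3, the remaining receptor of the family, had 7, 12 and 9 counts in vector and rose to 51, 54 and 39 in oeRNF112, by 2.27 ± 0.344 on the log2 scale (SE, edgeR's adjusted p = 0.00228). The retinoid X receptors with which NR4A1 and NR4A2 form pairs went the other way. RXRA fell by 0.35 and RXRB fell by 0.44 on the log2 scale, with adjusted p-values of 0.0202 and 0.0211 from the same test. These calls were not firm: the lower partners of the 10 gene products, RXRA, RXRB and CRTC1, went from 3 to 1 without vector replicate 1, oeRNF112 replicate 1 or oeRNF112 replicate 3, and to 0 with limma on log2(RPKM + 0.1).

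Of IER2, IER3 and IER5, only IER3 passed the test. IER3 encodes a short-lived protein that modulates apoptosis and is a known NF-kB target. It was the most abundant of the 10 genes per length in both groups and measured 118.3, 111.0 and 136.5 CPM in vector against 156.3, 178.5 and 163.5 CPM in oeRNF112, with no overlap. It rose by 0.45 ± 0.101 on the log2 scale (SE, edgeR's adjusted p = 0.0147), or 1.36-fold. Without vector replicate 1 the value was 0.44 and the adjusted p 0.0688. IER3 overlaps the antisense gene IER3-AS1, which had between 2 and 6 counts per library.

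IER2, a nuclear protein induced by growth factors, and IER5, which brings a phosphatase to the heat shock factor HSF1, did not pass. IER2 was at 84.4, 78.1 and 106.5 CPM in vector and 85.1, 85.5 and 81.6 CPM in oeRNF112. IER5 was at 131, 125 and 146 CPM in vector and 129, 129 and 118 CPM in oeRNF112. In both genes the oeRNF112 libraries fell inside or just under the range of the vector libraries. Their log2 fold changes were -0.09 (95% interval -0.35 to 0.17) and -0.10 (95% interval -0.30 to 0.10). The sign of IER2 was not settled: it was 0.00234 with library totals in place of TMM factors, 0.0124 to 0.0129 with limma and 0.05 without vector replicate 3.

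The ratio of IER3 to IER2 per length was 2.39, 2.42 and 2.19 in vector and 3.13, 3.56 and 3.42 in oeRNF112. That of IER3 to IER5 was 3.06, 3.01 and 3.18 in vector and 4.12, 4.69 and 4.71 in oeRNF112. Both ratios separated the groups without overlap. The related gene IER5L, whose function is less well known, had 1204, 1158 and 1402 counts in vector and fell to 683, 680 and 607 in oeRNF112, or from 31.9 to 15.8 CPM on average (edgeR's adjusted p = 0.000629).

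DUSP1, also called MKP-1, is the nuclear phosphatase that inactivates p38, JNK and ERK. It was at 95.9, 88.9 and 108 CPM in vector and 151, 190 and 178 CPM in oeRNF112, with every oeRNF112 library above every vector library. DUSP1 rose by 0.82 ± 0.111 on the log2 scale (SE, 95% interval 0.58 to 1.07, edgeR's adjusted p = 0.00135), or 1.77-fold. All 15 alternatives kept it past the threshold, between 0.76 and 0.92 on the log2 scale.

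Of 9 other phosphatases of its family that were tested, 4 rose, where 9.97% of all genes did. DUSP5, which acts on ERK in the nucleus, rose by 1.43 (adjusted p = 0.000184), DUSP4 by 0.72 (adjusted p = 0.00599), DUSP8 by 0.97 (adjusted p = 0.00625) and DUSP10 by 0.63 (adjusted p = 0.0307), all from edgeR's test. The cytoplasmic ERK phosphatases DUSP6 and DUSP7 did not pass, at 0.20 and 0.14, although their groups did not overlap. DUSP9, DUSP14 and DUSP16, at 0.35, 0.13 and 0.11, had overlapping groups and did not pass either. The ratio of DUSP1 to FOS per length, both being short-lived early transcripts, was 3.32, 2.46 and 2.71 in vector and 15.1, 22.2 and 11.1 in oeRNF112. FOS, the AP-1 subunit that shares SRF control with EGR1, went from 1194, 1512 and 1610 counts in vector to 434, 367 and 714 in oeRNF112 and fell by 1.60 ± 0.217 (SE, log2 scale, edgeR's adjusted p = 0.00141). Of the other AP-1 genes, FOSL2 rose by 0.47 (adjusted p = 0.00995 from edgeR), and FOSB, FOSL1, JUN, JUNB and JUND, between -0.10 and 0.16, did not pass.

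**Figure D2:**
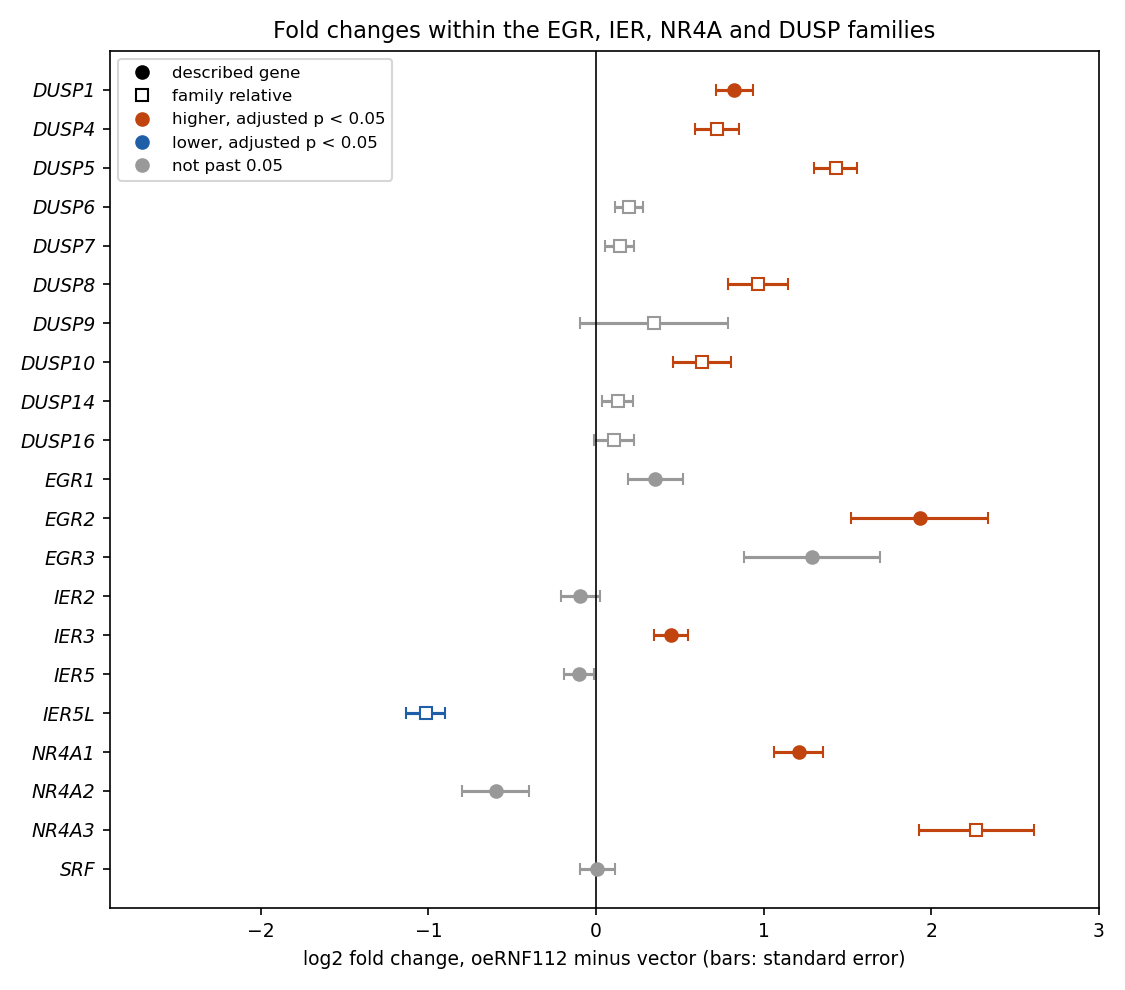
Log2 fold change of oeRNF112 minus vector for the described genes (filled circles) and their tested family relatives (open squares), with standard errors from edgeR. Orange genes were higher and blue genes lower at an adjusted p under 0.05, and grey genes did not pass. NR4A3, EGR2, DUSP5 and EGR3 lie farthest to the right, EGR3 in grey, and IER5L farthest to the left.

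Per length, the 10 genes spanned more than 3 orders of magnitude in RPKM (reads scaled by gene length and library total). In vector IER3 led with 95.3 ± 9.03 RPKM, followed by DUSP1 at 46.9 ± 4.10, IER2 at 41.1 ± 6.31, IER5 at 30.9 ± 2.05, EGR1 at 20.5 ± 3.38 and SRF at 9.35 ± 0.942 (SD, n = 3). NR4A1 and NR4A2 followed at 1.03 ± 0.210 and 0.882 ± 0.156 RPKM, and EGR2 and EGR3 were lowest at 0.0599 ± 0.0256 and 0.0517 ± 0.0219 RPKM. The ranges of DUSP1 and IER2, of NR4A1 and NR4A2, and of EGR2 and EGR3 overlapped, so these neighbors were not separated in vector. In oeRNF112 the order was the same, but DUSP1 at 88.7 ± 9.60 RPKM stood clear of IER2 at 41.1 ± 0.584, NR4A1 at 2.55 ± 0.150 stood clear of NR4A2 at 0.622 ± 0.109, and EGR2 at 0.246 ± 0.0503 stood clear of EGR3 at 0.136 ± 0.0358. There the only neighbors that overlapped were IER5 at 30.8 ± 1.22 and EGR1 at 28.1 ± 6.23 RPKM. These levels depend on the gene length the authors used, which works out at 8037 bases for NR4A1 against 3539 for NR4A2.

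Within the vector group the genes tended to deviate together, but the share of all genes that did so was not computed. Vector replicates 2 and 3 also differed over all tested genes beyond sampling noise (reduced chi-square of 58.65 between their counts). The value for oeRNF112 replicates 2 and 3 was 55.32. Between the groups it ran from 56.65 to 152.3, so the widest spread within a group reached the lowest value between groups. Whether such deviations are particular to the 10 genes was not tested. Over both groups, r between deviations ranged from -0.79 to 0.92 and was below 0 for 10 of the 45 pairs. Vector replicate 3 lay above the group mean for 9 of the 10 genes, NR4A2 being the exception, and had the highest value of its group for 8 of them. Vector replicate 1 lay below the mean for all 10. The deviations of vector replicate 3 were 0.48 for EGR3, 0.33 for NR4A1 and 0.26 for IER2 on the log2 scale. Its median deviation over the 10 genes was 0.19, against -0.09 in vector replicate 1 and -0.11 in vector replicate 2. In oeRNF112 the medians were -0.000510, 0.00276 and 0.0863, and EGR1 and EGR3 were lowest in replicate 2, at -0.37 and -0.34. These deviations were smaller than the group differences of NR4A1, DUSP1 and EGR2, whose groups stayed apart, and larger than those of SRF, IER2 and IER5.

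**Figure D3:**
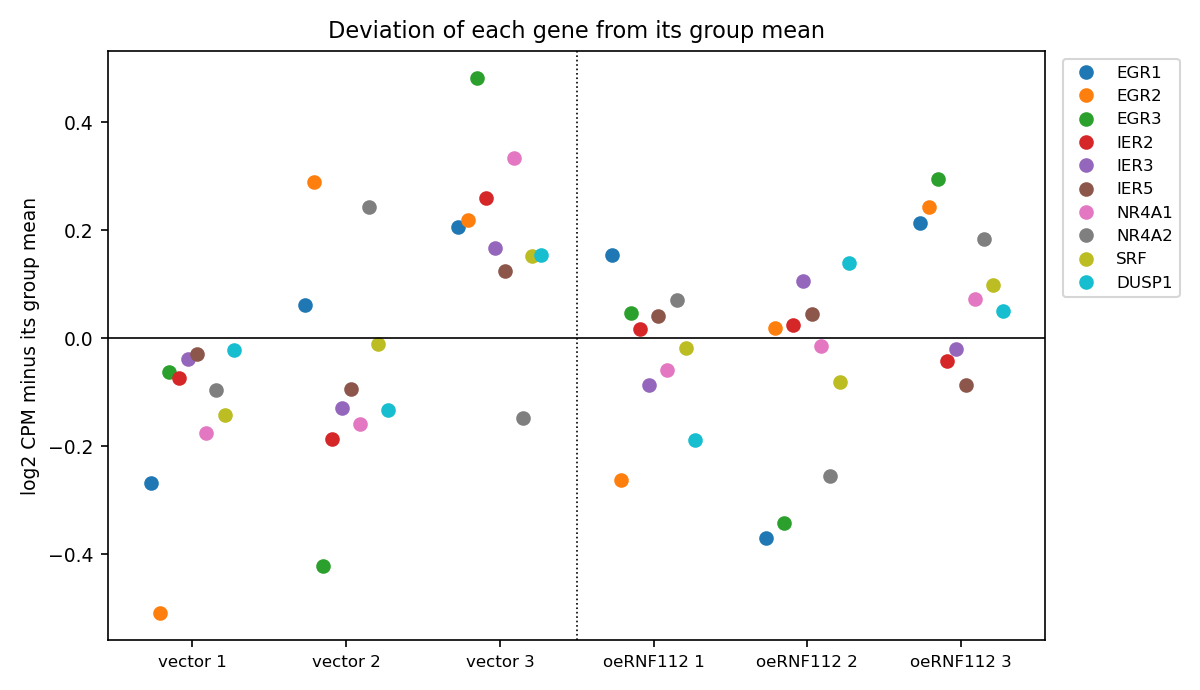
Deviation of each gene's log2 CPM from the mean of its own group, for the 3 vector and 3 oeRNF112 libraries (one color per gene, points spread sideways within a library). In vector replicate 3 all genes but NR4A2 lie above 0, and in vector replicate 1 all lie below it.

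The 5 genes whose log2 CPM followed EGR1 most closely over the 6 libraries were ULK1, NR2F1, INPP5E, UBE2G2 and PPP1R9B, with Pearson r between 0.982 and 0.987 among 12585 genes with a mean of at least 1 CPM. When deviations from the group means were used instead, the closest were DGCR2, UBE2G2, LINC01111, NR2F1 and ADIRF-AS1, with r between 0.990 and 0.996. None of these passed the test between the groups. With 6 libraries that the genes share, 149 genes had an r above 0.9 in the first ranking and 269 in the second.

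Hand-written lists placed the 10 genes in their pathway, and each was read against the 18.1% of all genes that differed. These lists were chosen with earlier results of these data known, so their shares are a description only. Among 63 other early-response genes, 36 were higher and 6 lower in oeRNF112, with a median log2 fold change of 0.43. Among those with the smallest p-values were F3, the tissue factor of coagulation, IL6, the growth factor HBEGF and the small GTPase GEM. F3 rose by 1.23, IL6 by 1.66, HBEGF by 1.24 and GEM by 1.51 on the log2 scale, with adjusted p-values from edgeR's test between 2.05e-05 and 0.00017. Of the 11 tested relatives of the 10 genes in the EGR, IER, NR4A and DUSP families, 5 were higher and 1 was lower.

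Of 21 RAS, RAF, MAP kinase and RSK or MSK genes, which carry the signal, 2 were higher and 1 lower (14.3% in all, near the 18.1% of all genes), and their median log2 fold change was -0.01. MAP2K3, which activates p38, rose by 0.65 (adjusted p = 0.00265 from edgeR's test) and the JNK gene MAPK9 rose by 0.34 (adjusted p = 0.0159), whereas MAP2K6, also an activator of p38, fell by 1.11 (adjusted p = 0.000753). MAPK3, which encodes ERK1, was at -0.14 and did not pass. The count of higher kinases was 1 without vector replicate 1, oeRNF112 replicate 1 or oeRNF112 replicate 3, and 4 without vector replicate 2.

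Of 16 tested partners of the 10 gene products, 3 were higher and 3 lower. ELK3, which sits with SRF on CArG boxes, rose by 0.38 (adjusted p = 0.0143 from edgeR's test), the CREB relative CREM rose by 0.47 (adjusted p = 0.027) and the EGR corepressor NAB2 rose by 0.34 (adjusted p = 0.0408). CRTC1, a coactivator of CREB, fell by 0.91 (adjusted p = 0.0034), and the other two that fell were RXRA and RXRB. ELK1, ELK4, MRTFA and MRTFB had overlapping groups and log2 fold changes between -0.07 and 0.03. These counts rested on single libraries: without vector replicate 1 or oeRNF112 replicate 3 there were 0 higher and 1 lower, without oeRNF112 replicate 1 there were 1 and 1, and without oeRNF112 replicate 2 there was 1 higher.

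Of 33 cytoskeletal genes that SRF drives through the MRTF coactivators, 4 were higher and 4 lower (12.1% each). These shares were near the 9.97% and 8.14% of all genes, and the median was -0.00252 on the log2 scale. The 5 with the smallest p-values were TGFB1I1 at -0.80, LIMA1 at 0.57, CNN3 at -0.36, PDLIM7 at 0.42 and CNN1 at 2.01, the last from at most 14 counts in a vector library. Without vector replicate 1 or oeRNF112 replicate 1 the counts were 1 higher and 1 lower, without oeRNF112 replicate 3 they were 2 and 1, and without vector replicate 3 there were 2 lower. Of 18 genes known as EGR1 targets, 7 were higher and 3 lower, with a median of 0.05. The 5 with the smallest p-values were F3, IGF2, GADD45A, ICAM1 and FAS. IGF2 rose by 2.36 (adjusted p = 0.000158 from edgeR's test), GADD45A by 0.96 and ICAM1 by 0.51, and FAS fell by 0.50. NAB2, F3 and GADD45A stand on several lists. Without vector replicate 1 or oeRNF112 replicate 1, 4 of the EGR1 targets were higher and 1 was lower.

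Handling and heat stress can raise immediate-early transcripts, so stress genes were read beside them. Of 15, 4 were higher and 1 lower, with a median of 0.10. DDIT3, of the integrated stress response, rose by 1.37 (adjusted p = 0.000344 from edgeR's test), HMOX1 by 0.93, SQSTM1 by 0.39 and HSPH1 by 0.29, and HSPA8 fell by 0.32. The heat shock genes DNAJB1, BAG3, HSPA1A and HSPA1B were at 0.02, 0.03, 0.18 and 0.10 and did not pass. The list summed to between 5457 and 6174 CPM in vector and between 5384 and 5937 CPM in oeRNF112. Much of this sum was HSPA8 and HSP90AA1, at means of 1875 and 1786 CPM in vector and 1506 and 1603 CPM in oeRNF112. It therefore says little about scarcer genes such as DDIT3, at 27.4 CPM in vector and 70.9 CPM in oeRNF112. Without vector replicate 1 or oeRNF112 replicate 1, 2 were higher, and the count of lower genes was 2 without vector replicate 2 and 0 without any other single library. The part of such stress in the rises above was not tested.

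**Figure D4:**
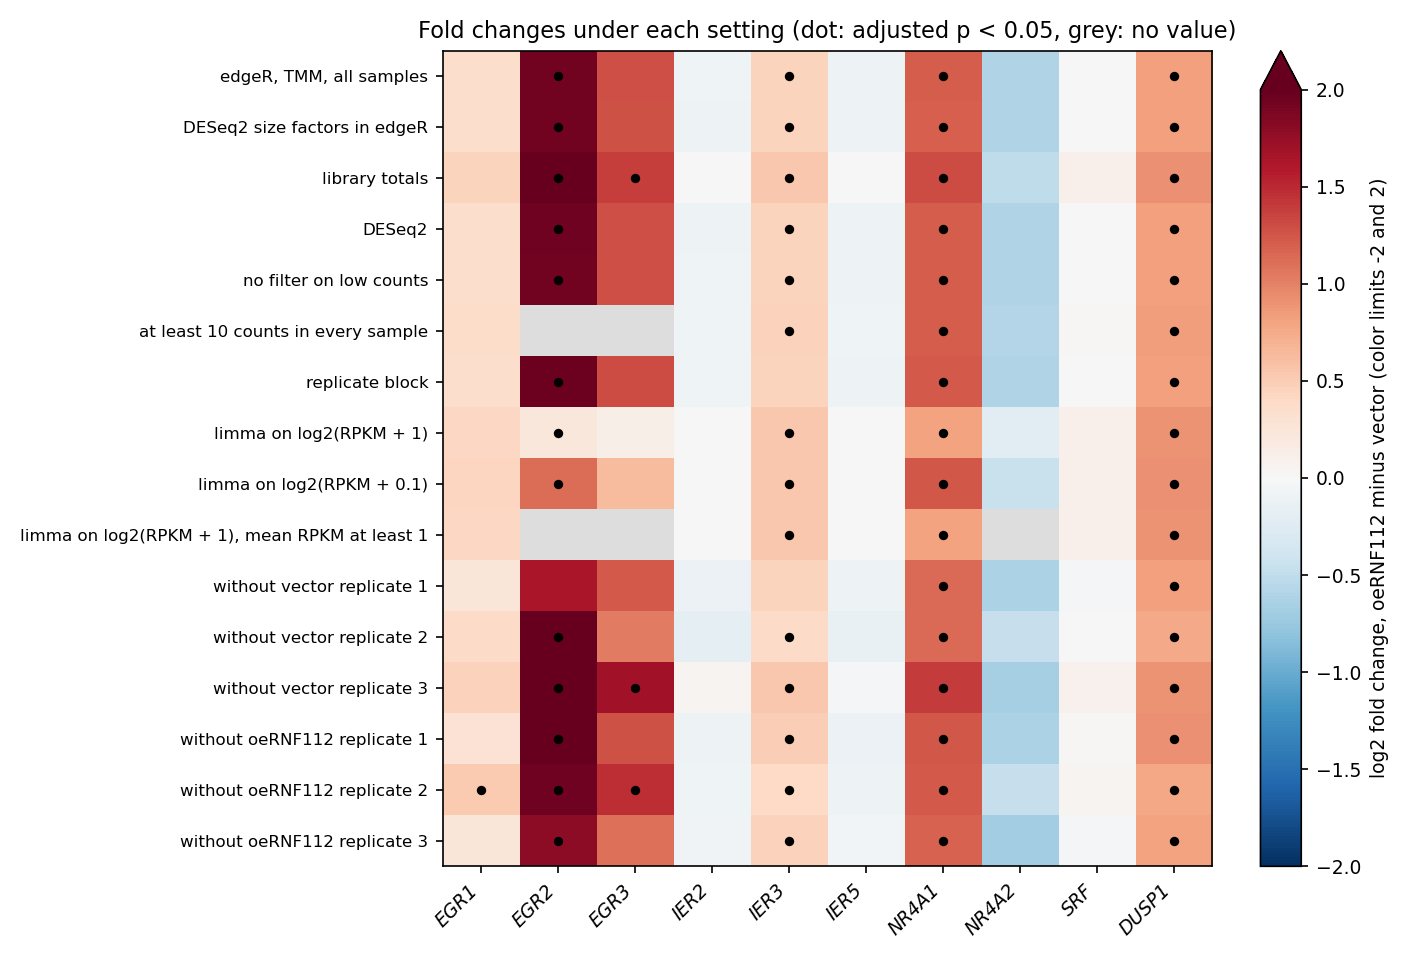
Log2 fold change of each gene (color, limits of -2 and 2) under the main test in the top row and its 15 alternatives below. A dot marks an adjusted p under 0.05 and grey a gene with no value in that setting. NR4A1 and DUSP1 carry a dot in every row, and NR4A2, IER2, IER5 and SRF in none.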

How the data were processed

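RNA of 3 vector and 3 oeRNF112 libraries of T24 cells was sequenced. The authors deposited 2 measures per gene, raw read counts and RPKM. For all 16237 genes detected in every library, each RPKM matched its count over library total and gene length within 0.1%. The submitters' processing notes name Trimmomatic 0.36, featureCounts, Subread 1.5.1 and GRCh38. The aligner, annotation and strand setting are not given in the sources used here, so overlapping antisense genes (at EGR3, IER2, IER3 and NR4A1 in GENCODE 29) may share reads.

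Groups came from the sample titles. Counts were tested with edgeR 4.0.16 in R 4.3.3 (filterByExpr, TMM, glmQLFit and glmQLFTest, Benjamini-Hochberg adjusted p under 0.05). As alternatives, DESeq2 1.42.0 and its size factors within edgeR, unscaled library totals, a stricter or no count filter, a replicate block, omission of each library and limma 3.58.1 on log2(RPKM + 1) or log2(RPKM + 0.1), where folds of low genes are understated, were run. On simulated data edgeR recovered 91% of 200 changed genes among 14295 tested, with 16 false calls among 198. It recovered 83% of those at a log2 size of 1 and 99% of those at 2. Recovery at smaller sizes, such as those of EGR1, IER3 and DUSP1, was not tested.

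The 10 genes and all lists were chosen with earlier results of these data known. Named genes are the 10, RNF112, at most 5 called genes per list by p-value, the 5 most like EGR1 and marker genes, and others were named after their values had been seen. Some genes the rule would name are not reported here. Correlations used log2(CPM + 0.1). Promoters came from RefSeq. No 2 libraries agreed within sampling noise.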

Additional observations from a re-analysis of the deposited data

How the results depend on the processing

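NR4A1 and DUSP1 kept their direction and stayed past the threshold in all 15 alternatives. EGR2 did so in 12 of 13, IER3 in 13 of 15. With library totals in place of TMM factors EGR3 was at 1.39 and past the threshold (adjusted p = 0.0409 from edgeR's test), IER2 was at 0.00234 and 659 genes were lower, with 2020 higher (75.4% of the calls, against 55%). IER2 was also above 0 with limma on log2(RPKM + 1), at 0.0124 both for all genes and for those with a mean RPKM of at least 1, and with the pseudocount of 0.1, at 0.0129. The lower genes in these fits were 424, 603 and 430. With the replicate number as a block (replicate block) 876 genes differed, of which 618 were higher and 258 lower, and this left IER3 at 0.45 with an adjusted p of 0.0933. Same-numbered libraries did not deviate together (correlations of -0.128, -0.401 and -0.329, none best with its own number), and the numbers were not treated as pairs. The cause of these changes was not tested.

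When each library was left out in turn, the genes that differed numbered 1061 to 3387, fewest without vector replicate 1 and most without vector replicate 2, the higher ones from 702 to 1841 and the lower ones from 359 to 1546. Of the 10 genes, between 2 and 6 were higher, 2 of them (NR4A1 and DUSP1) without vector replicate 1. EGR1 went from 0.246 to 0.530, EGR2 from 1.64 to 2.15, EGR3 from 1.04 to 1.67, IER3 from 0.381 to 0.535, IER2 from -0.185 to 0.0496 and SRF from -0.0461 to 0.0899 on the log2 scale. EGR2 and EGR3 had no value with at least 10 counts in every library or a mean RPKM of at least 1, nor NR4A2 with the latter. The higher early-response genes were between 25 and 38 over all alternatives. Depth limits EGR2, EGR3 and EGR4, where 3 counts correspond to between 0.0709 and 0.0778 CPM, counting error only.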

Other observations

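Among the 63 other early-response genes 6 were lower in oeRNF112, against 36 that were higher, and these 6 are named here after their values had been seen. The lower share, 9.52%, was near the 8.14% of all genes tested, whereas the higher share was 57.1% against 9.97%. The list itself was written with earlier results of these data known, so these shares are a description only. Besides FOS these were the Notch-responsive repressor HES1 (log2 fold change -1.04), the interferon-responsive factor IRF1 (-0.78), the C/EBP family member CEBPD (-0.70), the polo-like kinase PLK2 (-0.63) and the mRNA decay factor ZFP36L2 (-0.49). Their adjusted p-values from edgeR's test were between 0.00035 and 0.00994. Some relatives on the same list were higher. CEBPB rose by 0.60 (adjusted p = 0.00321), PLK3 by 0.66 (adjusted p = 0.00269) and ZFP36 by 0.50 (adjusted p = 0.0265), from the same test. In the C/EBP pair, CEBPD went from 648, 589 and 693 counts to 424, 432 and 405 counts, while CEBPB went from 4429, 3925 and 4474 to 6529, 7410 and 6672 counts.

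Ligands of the EGF receptor on the list had higher values in each oeRNF112 library than in any vector library. AREG rose by 1.36 (adjusted p = 0.000379 from edgeR's test) beside HBEGF, and EREG, at 0.49, did not pass (adjusted p = 0.0759).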
